A study of Rattus norvegicus with 6 samples.

Results

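The cytosolic ribosomal protein genes encode the proteins of the small and large subunits of the ribosome that works in the cytoplasm. They were chosen by gene symbol: Rpl or Rps followed by a number, with an optional letter and a closing number, or Rplp0, Rplp1, Rplp2 or Rpsa, which leaves out the Rps6k kinases. On the array, 48 of 14217 genes met this rule, 33 of the large and 15 of the small subunit. Other symbols that met it, such as Rplp1, Rplp2, Rps27a and Rps27, had no probe set paired with a single gene and so are not members.

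Gene expression was measured on 1 Affymetrix array per culture, in 3 control cultures grown on polyornithine-covered coverslips and 3 CNT cultures grown on coverslips covered with carbon nanotubes. All were dissociated spinal cord cultures from rats of postnatal day 1 to 4, labelled Sprague-Dawley, although the methods of the study name Wistar rats. The study asked how a nanotube substrate changes the development of these neurons. Such cultures hold glia and other cells beside neurons, so that in each culture fewer cells of a type and less RNA per cell cannot be told apart. Probe sets of all 10 neuronal markers were present, with mean log2 levels from 6.05 (the dimmest) to 11.8, and 10 of 10 microglial markers were measured as well. Before hybridization, 100 ng of total RNA was amplified from each culture. The 3′ minus 5′ difference of the beta-actin control probe sets, a sign of RNA quality, was 2.20, 0.62 and 0.66 log2 in control cultures 1, 2 and 3 and 0.92, 2.20 and 1.72 log2 in CNT cultures 1, 2 and 3.

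The small subunit reads the mRNA and the large subunit joins the amino acids, and each ribosome holds 1 copy of nearly all of these proteins. Their genes are transcribed at a high rate in every growing cell, and their mRNAs share a start of pyrimidines, the 5′ terminal oligopyrimidine (TOP) motif, through which mTOR signalling adjusts their translation. A few have a paralogue that is expressed in fewer tissues or at a lower level.

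RefSeq start sites on the rat build GRCr8 were found for 43 of the 48 genes, 41 by gene ID and 2 by symbol. A C at the annotated start itself followed by at least 4 C or T was present in 12 of the 43 (27.9%), against 2.63% of the 33469 promoters of the table and 2.68% of the 13192 promoters of genes on the array. For such a C within 10 bases of the start, in a run that may begin farther upstream, the shares were 67.4%, 28.9% and 29.0%. The following 5 windows are shown because their run of C and T lies at the start. Each has 30 bases, 10 before the start and 20 from it, written 5′ to 3′ on the strand of the gene, with the run in capitals.
Rplp0 (chr12:46718371-46718400, minus strand): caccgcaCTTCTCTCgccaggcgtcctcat
Rps15 (chr7:10068096-10068125, minus strand): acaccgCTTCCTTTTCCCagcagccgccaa
Rpl19 (chr10:83519054-83519083, plus strand): ccagcaagCTCTTTCCTTTCgctgctgcgt
Rpl28 (chr1:78083513-78083542, minus strand): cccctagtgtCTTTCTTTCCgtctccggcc
Rpl37a (chr9:81748081-81748110, plus strand): cccgttgcgtCTCTTCCTCTTCgggcttgg

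The run at the start itself was present in 12 of the 37 canonical genes and in 0 of the 6 paralogues. The paralogues were classed after the values were seen, and the starts are annotated ones that were not measured in these cultures. A C within 10 bases of the start followed by at least 4 C or T was present in 26 of the 37 and in 3 of the 6. The windows of the 3 paralogues without it are shown for comparison.
Rps27l (chr8:76443648-76443677, plus strand): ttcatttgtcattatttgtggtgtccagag
Rpl26l1 (chr10:17029009-17029038, minus strand): tcatttccgggcctgcgcacacaccaccgg
Rpl39l1 (chr10:5966602-5966631, minus strand): caggccgtcccgctatcctggtgtgtggtc

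Other letters were searched on both strands of the 300 bases around each start. The GABP motif CGGAAG was found in 46.5% of the members, 16.6% of all promoters and 25.7% of those of genes on the array. It was not particular to the members. Its share was 69.2% in ribosome biogenesis genes, 68.6% in translation initiation factors and 50.8% in mitochondrial ribosomal protein genes. In elongation and termination factors it was 30.8%. The YY1 motif AAGATGG was found in 18.6%, 7.01% and 7.55%, and TATAAA in 6 of the 43 members, 14.2% and 8.47%. For YY1 the share was 24.6% in mitochondrial ribosomal protein genes, 37.9% in constitutive proteasome subunits, 14.3% in initiation factors and 2.56% in biogenesis genes. These 3 motifs were chosen after the expression values were seen, and a match in these letters is a description of the sequence.

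No ribosomal protein gene passed the test between CNT and control cultures. None was called by limma at an adjusted p under 0.05, with an adjusted p over all genes of 0.999 for each, and the share of all genes called was 0%. At an unadjusted p under 0.05, 0 members were higher and 0 lower, against 2.41% and 0.71% of all genes (342 and 101). The limma SE is drawn in part from all genes, which raises the p-values of genes of small spread. The rank product, which the study's methods name, called 0 members and 65 genes higher and 5 lower in all. The groups did not overlap for 1 member, Rps15, which was higher on each CNT array (5.94% of all genes were), and for 0 members in the other direction (2.05%).

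The fold changes of the group centred close to 1. The median log2 fold change of CNT over control was 0.011 over the 48 genes, a fold of 1.01, beside 0.030 over all genes. It was positive for 33 members and negative for 15, and positive for 58.5% of all genes. By subunit the median was 0.019 for the 15 small and 0.0086 for the 33 large subunit genes.

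**Figure D1:**
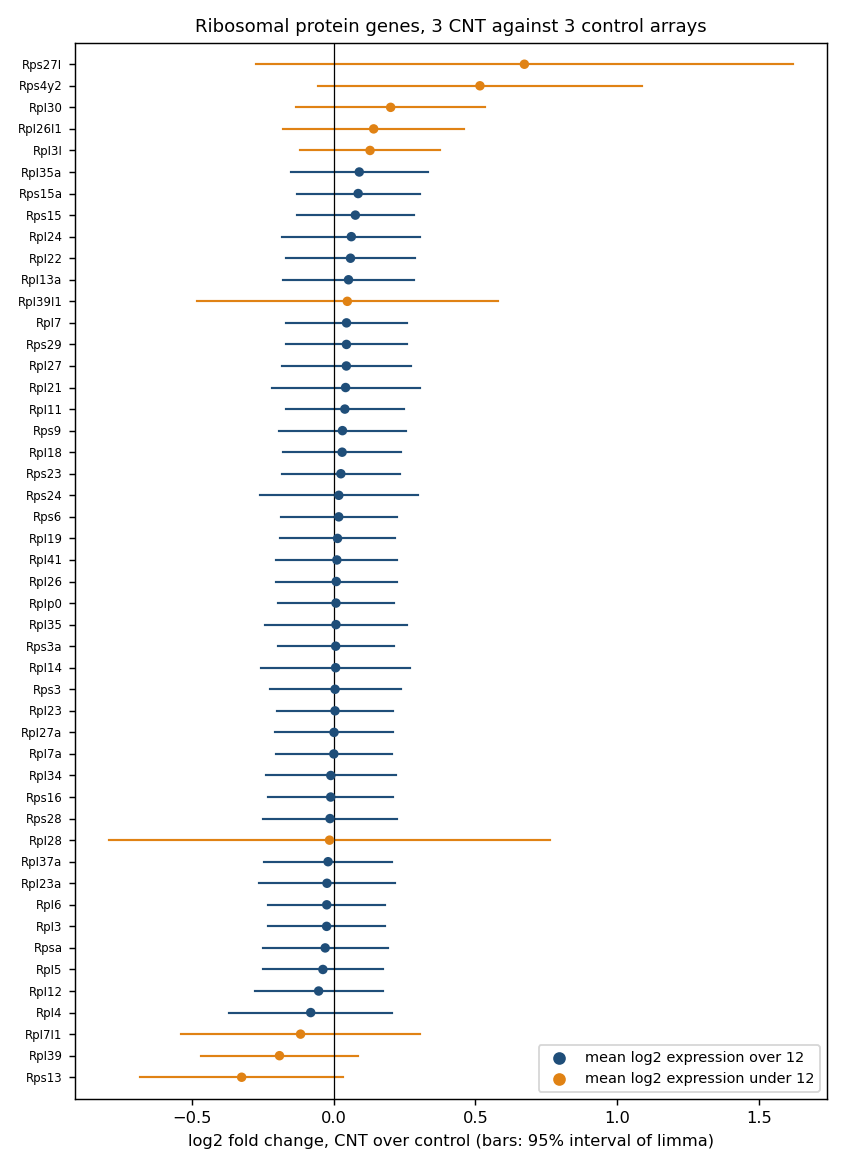
Log2 fold change of CNT over control for each of the 48 ribosomal protein genes, with the 95% interval of limma as a bar. The 38 genes with a mean log2 expression over 12 (blue) lie between −0.08 and 0.09, and the wider values belong to the 10 dimmer genes (orange).

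The members fell into bright and dim probe sets with no value between a mean of 11.4 and 13.4 log2. The 38 bright genes had mean log2 levels from 13.4 to 14.6, where the highest value of the table was 14.85, and 34 of them stood among the 100 brightest genes of the array. The line between them was drawn at 12 after these levels were seen. The 12 bright genes of the small subunit were Rps3, Rps3a, Rps6, Rps9, Rps15, Rps15a, Rps16, Rps23, Rps24, Rps28, Rps29 and Rpsa. The 26 of the large subunit were Rpl3, Rpl4, Rpl5, Rpl6, Rpl7, Rpl7a, Rpl11, Rpl12, Rpl13a, Rpl14, Rpl18, Rpl19, Rpl21, Rpl22, Rpl23, Rpl23a, Rpl24, Rpl26, Rpl27, Rpl27a, Rpl34, Rpl35, Rpl35a, Rpl37a, Rpl41 and Rplp0.

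Among the bright genes all 38 log2 fold changes lay within 0.1 of 0, from −0.080 for Rpl4 to 0.091 for Rpl35a. The 95% intervals of all 38 lay between −0.37 and 0.33, which is a fold of 0.776 to 1.26. Their median SE was 0.090, which limma draws in large part from all genes, so these intervals are wider than the genes' own spread would give. The spread between cultures was small, with a median pooled SD of 0.056 log2 against 0.193 for all genes. The 475 other genes with a mean over 13 had a median pooled SD of 0.127 and log2 fold changes from −0.89 to 0.96. Above a mean of 14 the median SD was 0.045 for 26 members, whose fold changes ran from −0.053 to 0.087, and 0.091 for the 33 other genes, which ran from −0.43 to 0.47. The levels 13 and 14 were chosen after the values were seen. Arrays compress differences near the top of their range, and the part of this in the narrow spread was not tested.

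**Figure D2:**
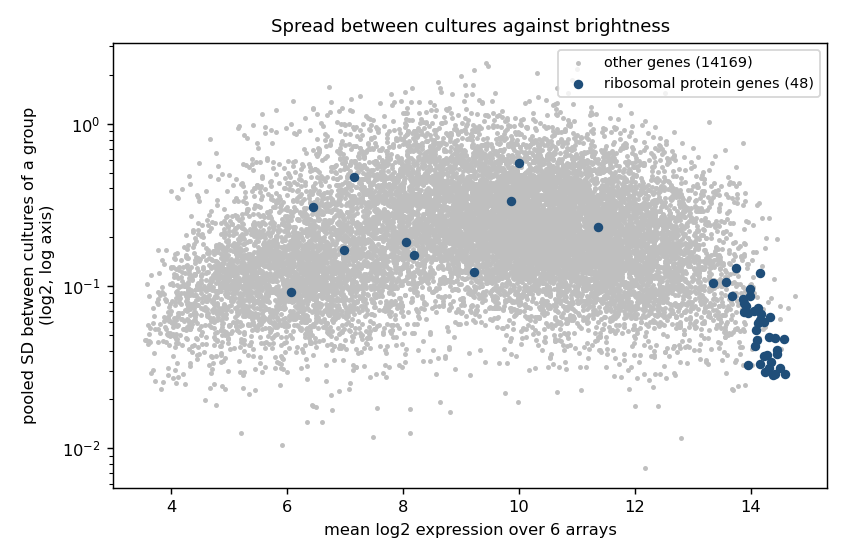
Pooled SD between cultures of a group (log2, log axis) against the mean log2 expression over the 6 arrays, for 14217 genes. Of the ribosomal protein genes (blue), 38 lie at a mean of 13.4 or more with SDs from 0.028 to 0.128, and the 10 others spread over lower means.

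In the small subunit, Rps6, the target of the S6 kinases downstream of mTOR, had log2 levels of 14.48, 14.53 and 14.50 in control cultures and 14.54, 14.48 and 14.54 in CNT cultures. The groups overlapped, and the log2 fold change was 0.018 ± 0.084 (SE). Rpsa, also known as the 67 kDa laminin receptor, was measured at 14.10, 14.23 and 14.12 in control and 14.17, 14.11 and 14.08 in CNT cultures, a difference of −0.029 ± 0.091 (SE). Rps15 is required for the export of the small subunit from the nucleus. It was the member with separated groups, at 13.87, 13.94 and 13.94 in control and 14.01, 13.96 and 14.01 in CNT cultures. The difference was 0.077 ± 0.085 (SE), a fold of 1.05, with a limma unadjusted p of 0.397. The gap between the highest control and the lowest CNT culture was thus small beside the standard error, which limma draws in part from all genes.

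In the large subunit, Rplp0, the base of the stalk that recruits elongation factors and a common reference gene, had levels of 14.26, 14.26 and 14.19 in control and 14.26, 14.24 and 14.24 in CNT cultures. Its log2 fold change was 0.0086 ± 0.084 (SE). Rpl5 and Rpl11, which join the 5S rRNA and bind Mdm2 when ribosome assembly is disturbed, differed by −0.037 ± 0.086 and 0.040 ± 0.085 (SE). Rpl3, close to the peptidyl transferase centre, differed by −0.024 ± 0.085 (SE). Rpl12, at the base of the stalk, had the second lowest bright value, −0.053 ± 0.093 (SE). Rpl4, which lines the exit tunnel, was measured at 13.74, 13.84 and 13.81 in control and 13.83, 13.51 and 13.80 in CNT cultures. Its lower CNT mean came from CNT culture 2, and without it the log2 fold change was 0.020.

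The cultures differed more from each other than the groups did. For each array, the median over the 38 bright genes of the deviation from the gene's own mean was 0.0017, −0.017 and −0.0059 log2 in control cultures 1, 2 and 3. It was 0.019, −0.041 and 0.052 in CNT cultures 1, 2 and 3. CNT culture 3 was the highest of the 6 arrays for 22 of 38 genes and CNT culture 2 the lowest for 18, so the extremes on both sides came from the CNT group. Without CNT culture 3 the median log2 fold change over the 48 genes was −0.0058, and without CNT culture 2 it was 0.043. Both subunits followed the same order of CNT arrays, with medians of 0.034, −0.031 and 0.054 for the 12 small and 0.017, −0.045 and 0.051 for the 26 large subunit genes. The beta-actin 3′ minus 5′ difference was 2.20 in CNT culture 2 and 1.72 in CNT culture 3, and with it as a covariate the median over the 48 genes was 0.019. The summed level of the 9 fibroblast and meningeal markers, as their mean deviation, was lowest in CNT culture 2, at −1.11 (range in CNT cultures −1.11 to 0.14, in control cultures 0.20 to 0.67), and its part in these values was not tested.

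**Figure D3:**
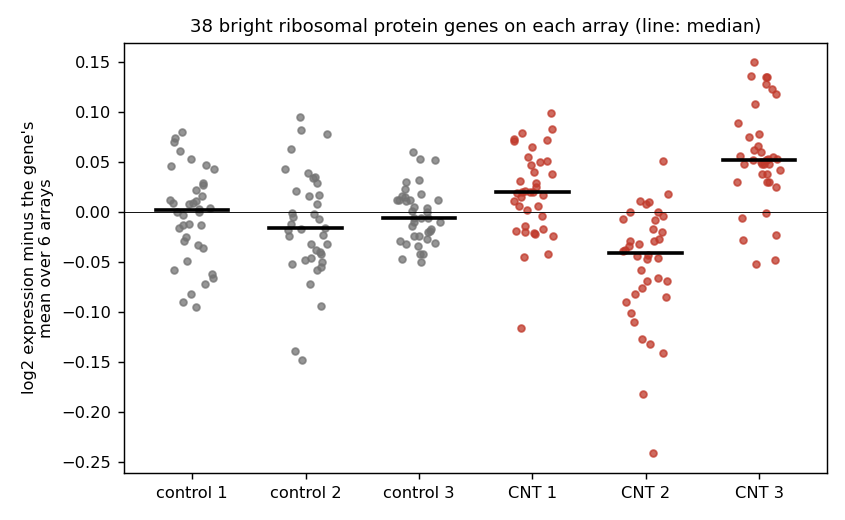
Log2 expression of each of the 38 bright ribosomal protein genes on each array, minus the gene's mean over the 6 arrays, with the median as a line. The medians of the control arrays lie between −0.017 and 0.0017, and those of CNT cultures 2 and 3 lie at −0.041 and 0.052.

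The 10 dim genes held 6 paralogues, Rps27l, Rps4y2, Rpl3l, Rpl7l1, Rpl26l1 and Rpl39l1, and 4 canonical genes, Rps13, Rpl28, Rpl30 and Rpl39. The paralogue class was named after the values were seen. Their median pooled SD was 0.208 log2, and the log2 fold changes ran from −0.32 to 0.67. The 2 members with the highest fold change and the one with the lowest were all dim.

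Rps27l, a paralogue of Rps27 that p53 induces, was measured at 9.31, 10.21 and 9.48 in control cultures (mean 9.67 ± 0.48, SD) and 11.08, 10.12 and 9.82 in CNT cultures (10.34 ± 0.66, SD). CNT culture 1 was the highest and the groups overlapped. The log2 fold change was 0.67 ± 0.39 (SE), a fold of 1.59, with a limma unadjusted p of 0.134. It was 0.30 without CNT culture 1 and 0.94 without control culture 2. The 8 measured of 9 oligodendrocyte markers, as their mean deviation, ranged from −0.45 to 0.35 in control and from −0.68 to 0.49 in CNT cultures. Their order put CNT culture 1, control culture 2 and CNT culture 2 highest, and the 3 highest values of Rps27l came from the same cultures. These 3 cultures were also the highest for the astrocyte and the microglial markers, and not for the other marker lists. The match was thus not particular to oligodendrocytes. The part of any of these cell types in the values of Rps27l was not tested.

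Rps4y2, a copy of the small subunit protein S4 that RefSeq places on chromosome 4, was measured at 9.19, 9.63 and 9.97 in control and 10.39, 10.09 and 9.87 in CNT cultures. Control culture 3 lay above CNT culture 3. The log2 fold change was 0.52 ± 0.24 (SE), with a limma unadjusted p of 0.069, and ranged from 0.31 to 0.70 when each array was left out.

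Rps13, which lies where the subunits meet, had the lowest fold change. It was measured at 8.27, 8.30 and 8.06 in control and 7.83, 8.14 and 7.69 in CNT cultures, and CNT culture 2 lay above control culture 3. The log2 fold change was −0.32 ± 0.15 (SE), with a limma unadjusted p of 0.069. These values are of its dim single-gene probe set. The brightest probe set that lists Rps13 with other genes had a mean of 14.11 and a log2 fold change of 0.0070. Rpl39, a short protein of the exit tunnel, was measured at 9.38, 9.24 and 9.33 in control and 9.18, 9.25 and 8.95 in CNT cultures, with overlapping groups. It differed by −0.19 ± 0.11 (SE).

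The other 6 dim genes had log2 fold changes from −0.12 to 0.20. The log2 fold change was 0.20 ± 0.14 (SE) for Rpl30, 0.14 ± 0.13 for Rpl26l1 and 0.13 ± 0.10 for Rpl3l, the striated muscle paralogue of Rpl3. It was −0.12 ± 0.17 for Rpl7l1, 0.049 ± 0.22 for Rpl39l1 and −0.014 ± 0.32 for Rpl28. Both genes of a pair were measured for Rpl3 and Rpl3l, which differed by −0.024 and 0.13, and for Rpl7 and Rpl7l1, at 0.046 and −0.12. They were also measured for Rpl26 and Rpl26l1, at 0.0096 and 0.14, and for Rpl39 and Rpl39l1, at −0.19 and 0.049. None of these 8 genes was called. Rpl22, whose paralogue Rpl22l1 had no single-gene probe set, differed by 0.060 ± 0.094 (SE).

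**Figure D4:**
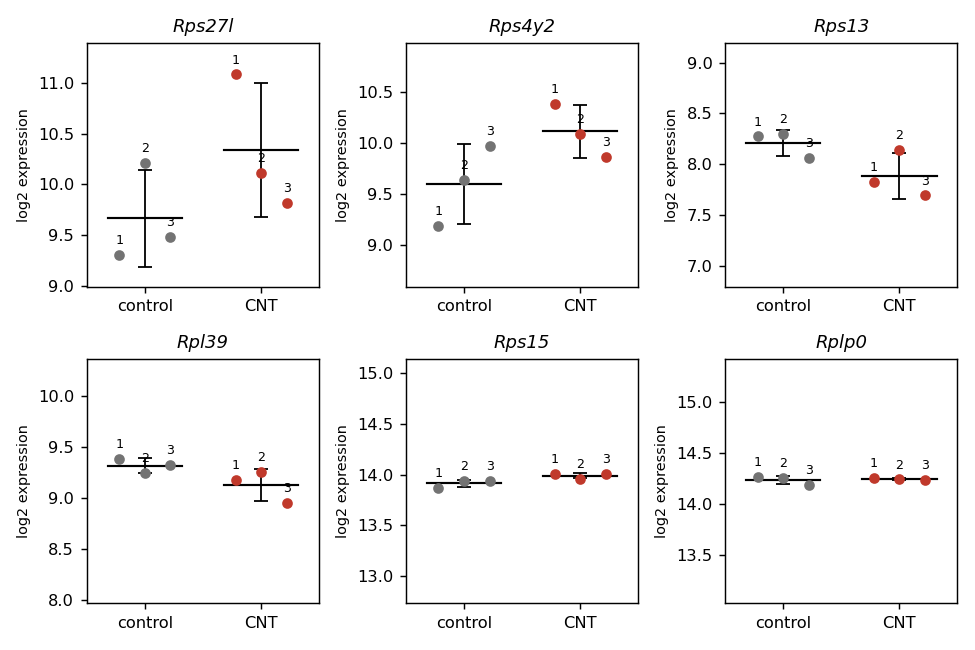
Log2 expression of 6 ribosomal protein genes by culture, with the culture numbers 1 to 3, the group mean as a line and the SD as bars, each panel covering the same height of log2. Rps27l and Rps4y2 had the highest fold changes, Rps13 and Rpl39 the lowest, Rps15 was the member with separated groups, and Rplp0 overlapped with a difference of 0.0086.

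The value of a gene depended on the probe set read. Of the 48 members, 42 had 1 single-gene probe set and 6 had more. The second probe set of Rpl7 was measured at 9.87, 11.37 and 9.92 in control and 11.98, 10.92 and 10.20 in CNT cultures, with a log2 fold change of 0.65 ± 0.59 (SE) against 0.046 for the brighter one. That of Rpl14 was measured at 6.72, 7.67 and 6.99 in control and 8.21, 7.94 and 7.25 in CNT cultures, a difference of 0.67 ± 0.34 (SE) against 0.0074. Both were highest in CNT culture 1, and their 3 highest values came from CNT cultures 1 and 2 and control culture 2, as for Rps27l. The second probe set of Rps24 differed by −0.36 ± 0.22 (SE), that of Rpl3 by 0.13 and that of Rpl7l1 by −0.0082. Rpsa had 3 probe sets, which differed by −0.029, 0.032 and 0.090. The third had separated groups, at 13.39, 13.27 and 13.32 in control and 13.40, 13.41 and 13.44 in CNT cultures. The brightest, which stands for Rpsa elsewhere, did not.

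A further 36 probe sets list several genes with at least 1 symbol of the rule. They were looked at after the other values. Of these, 33 had a mean over 12, their median log2 fold change was 0.0035, from −0.37 to 0.22, and none had separated groups. The brightest of those that list Rps13, Rpl28 and Rpl30 had means of 14.11, 14.07 and 14.03 and log2 fold changes of 0.0070, −0.020 and 0.0016. For these 3 canonical genes the dim single-gene probe set and the bright shared one thus gave unlike levels, and the shared one gave the smaller difference for Rps13 and Rpl30.

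The factors that work with the ribosome were set beside its proteins. The lists come from general knowledge of the pathways, but were chosen with earlier results of these data known. Of 34 measured initiation factors, 0 were called, 16 fold changes were positive and 18 negative, and the median was −0.0088. The groups did not overlap for 2 of the 34, both lower in CNT cultures, where 2.05% of all genes were lower in this way. One was Eif3a, the largest subunit of eIF3, which had every CNT array below every control array, at 12.94, 12.80 and 12.73 in control and 12.60, 12.72 and 12.70 in CNT cultures. Of 14 elongation and termination factors, 0 were called, 5 were positive and 9 negative, and the median was −0.026. The groups did not overlap for 1 of the 14, lower in CNT cultures (2.05% of all genes were). Of 4 measured partners of the ribosome outside the naming rule, 0 were called, 2 were positive and 2 negative. For 1 of these 4 the groups did not overlap, again lower in CNT cultures. Eef1a1, which brings aminoacyl-tRNA to the ribosome, differed by −0.044 ± 0.084 (SE), and Rack1, a scaffold on the small subunit, by 0.013 ± 0.088.

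Ribosome biogenesis covers rRNA transcription, processing and assembly. Of its 83 genes 0 were called, 56 were positive and 27 negative, with a median of 0.045. Taf1d, a factor of RNA polymerase I, was measured at 11.37, 11.30 and 11.32 in control and 11.22, 11.03 and 11.07 in CNT cultures, a difference of −0.22 ± 0.095 (SE). Nop16, of the nucleolus, was higher in each CNT than in each control culture, at 11.17, 11.10 and 11.09 in control and 11.29, 11.31 and 11.25 in CNT cultures. In this list of 83 genes the groups did not overlap for 4 higher and 1 lower in CNT cultures. Over all genes the shares were 5.94% and 2.05%, so such genes were not more frequent here. Of 33 genes of mTOR signalling and S6 kinases, 0 were called, 17 were positive and 16 negative, and the median was 0.019. Mtor itself differed by 0.025 ± 0.13 (SE) and Larp1, which binds TOP mRNAs, by 0.025 ± 0.098.

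The ribosome of mitochondria, encoded by other genes, gave a higher median than the cytosolic one. Over 73 mitochondrial ribosomal protein genes the median log2 fold change was 0.095, and 62 were positive and 11 negative. The groups did not overlap for 14 of the 73, all higher in CNT cultures, where 5.94% of all genes were higher in this way, and 0 were called by limma. Mrps18a was measured at 11.87, 11.84 and 11.88 in control and 12.05, 12.19 and 12.06 in CNT cultures, a difference of 0.24 ± 0.089 (SE). The mean deviation of the list was 0.030, −0.092 and −0.077 in control and 0.022, −0.00019 and 0.116 in CNT cultures, so control culture 1 lay above CNT cultures 1 and 2. Over 86 genes of the respiratory chain and its assembly the median was 0.046, with 65 positive and 21 negative. Over 33 constitutive proteasome subunits it was 0.043, with 22 positive and 11 negative. The difference between the mitochondrial and the cytosolic ribosome was not tested.

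**Figure D5:**
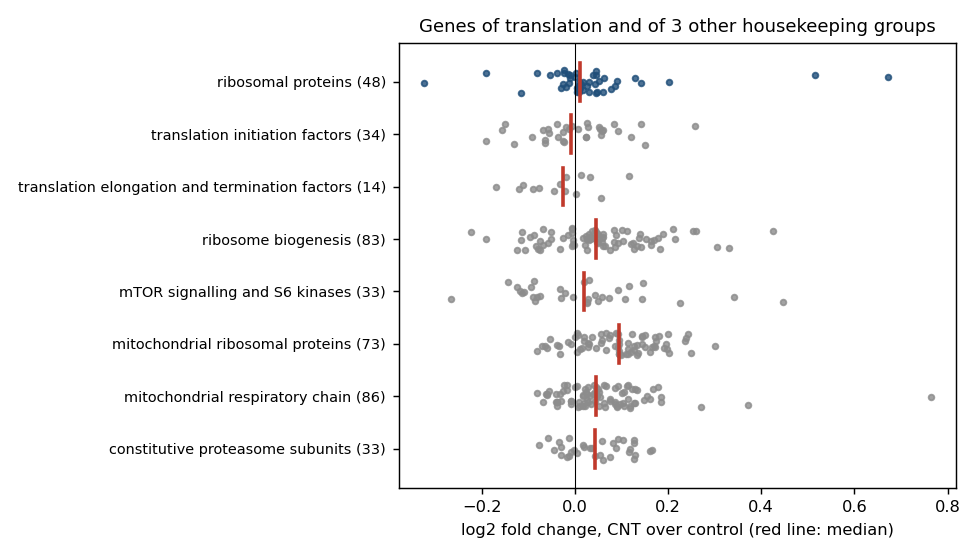
Log2 fold change of CNT over control for each gene of 8 groups, with the number of genes in brackets and the median as a red line. The median is 0.011 for the cytosolic ribosomal proteins and 0.095 for the mitochondrial ribosomal proteins.

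Interferon and eIF2 kinases can halt translation by the ribosome. Of 10 measured genes of such an arrest 0 were called, 7 were positive and 3 negative, and the median was 0.14. The log2 fold changes ran from −0.19 to 3.69. At a limma unadjusted p under 0.05, 3 of the 10 were higher and 0 lower (2.41% and 0.71% of all genes). The groups did not overlap for 1, which was higher in CNT cultures (5.94% of all genes were). Eif2ak2, which encodes the double-stranded RNA kinase PKR, was measured at 9.75, 9.53 and 10.57 in control and 10.50, 10.63 and 11.27 in CNT cultures, with control culture 3 above CNT culture 1. Its log2 fold change was 0.85 ± 0.33 (SE), with a limma unadjusted p of 0.041 and an adjusted p of 0.999. The mean deviation of 19 interferon response genes was −1.39, −2.09 and 0.33 in control and 0.59, 1.10 and 1.45 in CNT cultures. Their median log2 fold change was 2.18, and 0 were called. The groups did not overlap for 13 of the 19, all higher in CNT cultures. This list, like the others, was chosen with earlier results of these data known. Over the same arrays the median deviation of the 38 bright ribosomal protein genes ranged from −0.041 to 0.052. This is a median over genes, where the interferon value is a mean, and single ribosomal protein genes ranged wider.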

How the data were processed

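Total RNA of 6 cultures was hybridized to Affymetrix rat arrays, 1 per culture. The deposited values are log2 expression from RMA, run by the authors. RMA corrects background, gives the probes of all arrays 1 distribution and summarizes them into probe sets. The version is not given in the sources used here. A common distribution can narrow differences among the brightest probe sets, and a difference of the total RNA per cell cannot be seen. The labels name TRIzol and the RNeasy Mini kit for RNA extraction, and the paper's methods another kit.

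Of 31099 probe sets, 57 were controls, 20826 were paired with 1 gene, 436 with several and 9780 with none. Each of 14217 genes was represented by its single-gene probe set with the highest mean over 6 arrays. A linear model of the 2 groups was fitted to all genes with limma 3.58.1 (lmFit, eBayes; R 4.3.3), with Benjamini-Hochberg adjustment and a threshold of 0.05, without pairing. Standard errors and 95% intervals are those of the fit. The smallest p of an exact two-sided permutation test here is 0.1, and precision is limited by the number of arrays. The p-values rest on the spread between cultures that the labels call biological replicates, moderated by limma over all genes. For genes of small spread they are therefore not a measure of the gene's own spread alone. All columns were used, so 0 were left out.

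The rank product over 9 pairs was written anew, with 1000 permutations of the values within each array and a percentage of false positives of 0.05. A first version, which took the pairs as independent, called Rps27l and Rps4y2. It called far too many unchanged genes in simulated data and was replaced after its result was seen. Both limma and the rank product were tested on simulated data.

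The members and the gene lists were chosen with earlier results of these data known. The genes named are the stalk, 5S, laminin receptor and S6 genes, paralogue pairs, the 5 highest and 5 lowest fold changes, the 4 of smallest unadjusted p in each direction, members with separated groups or with 3 or more probe sets, and up to 3 genes of each other list. Eef1a1, Rack1, Mtor, Larp1, Rpl26, Rpl28, Rpl35a and Rpl39l1, and the second probe sets, were named after their values were seen. Alternatives changed the moderation, array weights, pairing, normalization, choice of probe set, filter on dim genes, the arrays left out and the treatment of RNA quality. The rank product with a 2-fold limit and the probe sets that list several genes were added later, with the data seen. Start windows come from RefSeq promoters on GRCr8. For 5 members no promoter was in the table used here, and protein sequences were not analysed here.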

Additional observations from a re-analysis of the deposited data

How the results depend on the processing

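No ribosomal protein gene was called by limma under the 18 other settings run, nor by the rank product with or without its 2-fold limit. The limma settings called 0 of all genes, apart from 2 genes without control culture 3. A limma count of 0 members therefore says little about the members. The median log2 fold change over the members stayed between 0.0048 and 0.019 under the settings that kept all arrays, apart from median centring. It was 0.057 with median centring, which moved the median of all genes to 0.076. Before centring, the array medians over all probe sets were 8.23, 8.24 and 8.25 in control and 8.20, 8.18 and 8.21 in CNT cultures. They were thus lower on each CNT array, and the centre of the fold changes depends on this offset. Without control culture 1 and CNT culture 2, the arrays of largest beta-actin difference, the member median was 0.043. Leaving out each array in turn gave a member median of −0.0058 (without CNT culture 3) to 0.043 (without CNT culture 2), so its sign rests on single arrays. The cause was not tested. Of 19 named members, 12 kept their sign in every setting run. The others were Rplp0, Rpsa, Rpl5, Rpl3, Rpl7l1, Rpl4 and Rpl12, and of these Rpl7l1 had the main value farthest from 0, at −0.12. Rpl7 moved from 0.046 to 0.35 when the mean of its probe sets was taken.

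Over all genes, cultures of the same replicate number deviated together for numbers 2 and 3 (r of 0.36 and 0.51) and not for number 1 (r = −0.13). These deviations are from the mean of each group of 3, so the correlations cannot settle whether the cultures were paired. The paper names 3 culture series for each condition and does not say whether the conditions shared them. The main fit did not take the samples as paired. With the replicate number as a block, 0 members were called and the median stayed at 0.011. At an unadjusted p under 0.05, 1 member was lower with the block, with cyclic loess and without CNT culture 2. The shares of all genes lower in these settings were 1.26%, 0.80% and 0.37%. With the beta-actin covariate 2 members were higher, and 1 was higher with array weights, with median centring and without control culture 3. In these 4 settings 2.29%, 3.74%, 3.84% and 4.71% of all genes were higher. Not every culture correlated best with its own number, since control culture 2 correlated best with CNT culture 1 (r = 0.68). With 3 arrays a group, a difference in the dim genes of the size seen here could not be told from the spread between cultures.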
